A study of Mus musculus with 12 samples.

Results

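Dendritic cells at 12 h of poly(I:C) were compared with cells of the same 2 experiments at 0 h, on 2 arrays a side out of the 12 arrays of the study. Poly(I:C) is a synthetic double-stranded RNA that stands in for viral RNA. The members are the arrays whose titles name 12 h and 0 h, and each 12 h array was set against the 0 h array of its own replicate number, called experiment 1 and experiment 2 here. All groups are C57BL/6 bone marrow from femurs and tibias, grown for 6 days in GM-CSF at 10 ng/ml, and the 12 h cells had poly(I:C) at 2.5 µg/ml while the 0 h cells had none. These doses are those of the sample labels, and the methods of the study name other ones. The labels give the age of the mice as 3 to 4 months in one field and as 8 to 10 weeks in another. Per the methods of the study, each experiment used 1 mouse, cells were selected for the surface protein CD11c, and the experiments were hybridised apart, so n = 2 mice at each time. No array holds cells kept for 12 h without poly(I:C), so time in culture and poly(I:C) cannot be told apart.

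Dendritic cells take up antigen in the tissue, sense microbes with receptors such as TLR3 and the RNA helicases, and then mature, which means that they stop sampling, move to the lymph node and show peptides to T cells. Double-stranded RNA starts 2 linked programs in such cells. The first is direct and runs through the IRF and NF-kB factors to interferon and cytokine genes. The second follows from the secreted interferon, which acts on its receptor and through STAT and IRF proteins on a broad set of antiviral genes.

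The signals are scaled fluorescence values with no unit, and each array as deposited has a mean of 500 when the highest and lowest 2% of signals are left out. Changes are log2 of the signal plus 16, a constant that damps noise near background, so the fold change of a dim probe set is understated. Of 45037 probe sets other than controls, the 22519 with a mean signal no lower than the median were tested with limma, and a probe set was called at an adjusted p under 0.05. For counts of genes, the brightest tested probe set of each of 10985 genes was used. Signals are given as experiment 1 and then experiment 2. Median signals of the 4 arrays ran from 72.6 to 83.1, and 21.2% to 22.0% of signals were below 16.

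At 12 h, 2098 probe sets were called higher (9.32%) and 4205 lower (18.7%) than at 0 h. Counted by gene, 1166 of 10985 were higher (10.6%) and 2250 lower (20.5%), so falls outnumbered rises in the values as deposited. The rises reached further. Among called genes, 133 rose and 39 fell at least 8-fold, and 70 rose and 3 fell at least 16-fold. A fall can go no lower than the added constant of 16, which bounds its size by the 0 h signal. The part of this bound in the difference was not tested. The median size of a called change was 2.36-fold for rises and 2.16-fold for falls. Of 611 genes called higher that have several tested probe sets, 287 had all of them called higher. Of 1174 such genes called lower, 508 had all called lower. The balance of rises and falls depended on the scaling of the arrays. The median log2 change of all tested probe sets was -0.23, and centring each array on its median moved every change by 0.31 and turned the counts to 3254 higher and 2205 lower. Rises were 33.3% of the calls as deposited and 59.6% after centring. Quantile normalisation gave 2386 higher and 3228 lower, or 42.5%. Changes of gene groups below are therefore read beside the median of all 10985 genes, which was -0.20.

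The log2 ratios of experiment 1 and experiment 2 had a Pearson correlation of 0.76 across the 22519 tested probe sets, which are not independent replicates. Of these, 1094 rose and 2013 fell at least 2-fold in both experiments, and 52 moved at least 2-fold in opposite directions. Leaving out either 0 h array or either 12 h array left 1211 to 1312 probe sets higher and 1679 to 2401 lower, and leaving out either 24 h array gave 2897 to 2901 higher and 6410 to 6420 lower. Without a term for the experiment, 1079 were higher and 1936 lower.

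**Figure D1:**
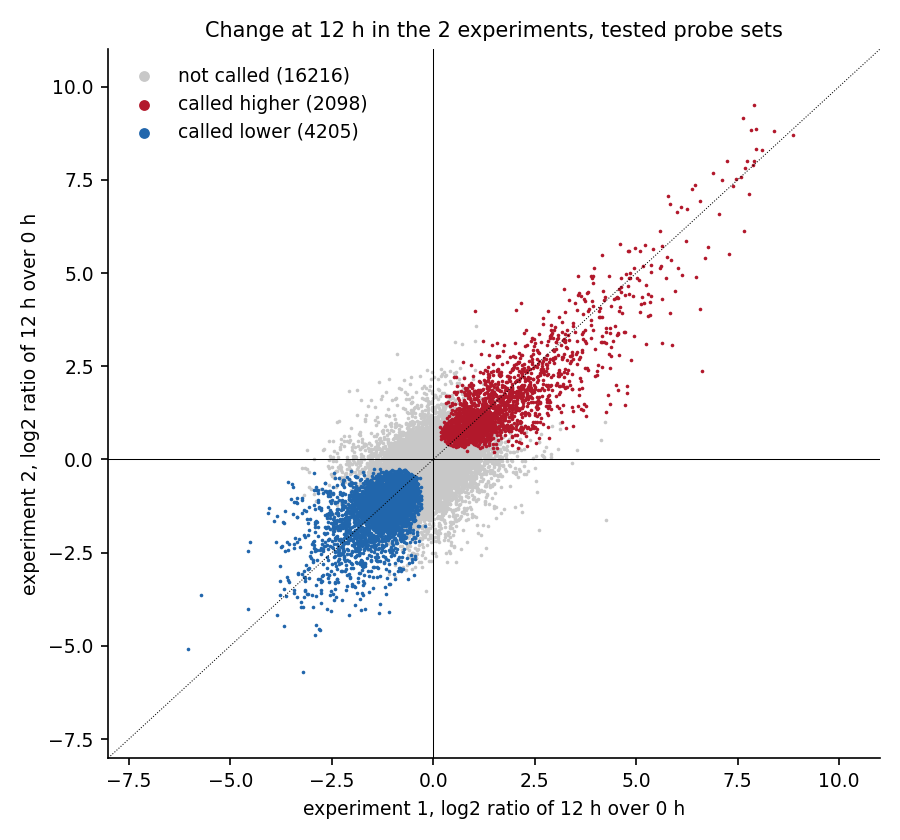
Log2 ratio of the 12 h over the 0 h signal in experiment 1 (x axis) and experiment 2 (y axis), 1 point per tested probe set, red where called higher, blue where called lower and grey where not called. A call favours ratios that are alike in both experiments, so the equal sign of the 2098 red and 4205 blue points follows largely from the choice of points. Called ratios can still differ in size, as for Ccr7 with 4.77 and 1.96. The red points extend further from 0 than the blue.

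Markers of dendritic cells and of macrophages were both present. Itgax, which encodes CD11c, had signals of 18780 and 18932 at 0 h and 19303 and 24684 at 12 h. Zbtb46, a transcription factor of conventional dendritic cells, had 415 and 247 at 0 h and 318 and 321 at 12 h. Neither was called. Flt3, the receptor of the conventional lineage, was near background with signals of 18.4 to 40.7 on the 4 arrays. The macrophage markers Csf1r and Adgre1 were measured as well, Csf1r with 22493 and 25095 at 0 h against 29414 and 27249 at 12 h, and Adgre1 with 2573 and 3406 at 0 h against 2062 and 2860 at 12 h. Summed over the 10 macrophage markers on the array, signals went from 40685 and 36440 at 0 h to 59034 and 46298 at 12 h. That sum includes Fcgr1, from 2190 and 1225 to 12032 and 8788, and Mertk, from 1314 and 1143 to 6953 and 4440. Over the 11 dendritic markers the sums went from 107453 and 80474 to 127429 and 125462. Some macrophage markers had lower signals at 12 h in both experiments. C1qa, C1qb and C1qc, the chains of complement C1q, had log2 changes of -1.15, -0.59 and -0.65, of which only that of C1qa was called, and not under median centring, among other settings. In the dendritic list Batf3 had -0.55 and was not called, and Cd209a, below the median signal needed for testing, went from 115 and 69.7 to 10.6 and 8.71. Of 60 markers of neutrophils, mast cells, lymphocytes, red cells and stroma, 31 were below the median of the array on all 4 arrays. Mmp8, on the neutrophil list, went from 16988 and 23443 to 19711 and 34531, and S100a8 from 2530 and 2303 to 2070 and 2952, neither called, while Elane and Mpo were at 83.3 or less. Over the tested genes of these marker lists, 1 of 8 dendritic, 2 of 7 macrophage, 1 of 2 mast cell and 2 of 5 stromal markers were called higher and 1 of 7 macrophage markers lower, and limma called 0 of the 3 neutrophil, 2 T and NK cell, 4 B cell and 2 erythroid ones, of which 1 passed an unadjusted p under 0.05. The part of other cells in the changes below was not tested, and in RNA from a whole culture fewer cells of a type and less RNA per cell cannot be told apart.

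The steepest rises were mostly of antiviral interferon-induced genes. Ifit2, whose protein binds viral RNA and blocks its translation, had signals of 123 and 44.8 at 0 h and 33328 and 44280 at 12 h. Its log2 change was 8.71 ± 0.33 (limma SE, adjusted p = 2.28e-07), from ratios of 7.91 and 9.51 in the 2 experiments. Each ± value is an SE of limma, whose variance comes from all 12 arrays and is shared in part between probe sets. It is not the spread of the 2 ratios. Its relatives rose too. Ifit1 went from 84.1 and 83.5 to 21106 and 25427, Ifit3 from 120.2 and 149 to 25869 and 31187 and Ifit1bl1 from 124 and 55.3 to 31744 and 32339, with log2 changes of 7.86, 7.57 and 8.32. In each of these genes both 12 h arrays lay far above both 0 h arrays. Rsad2, which encodes viperin and makes a chain-terminating nucleotide, rose from 243 and 193 to 39191 and 54120. Cmpk2, its genomic neighbour and the kinase that feeds it, rose from 114 and 116 to 30500 and 31319 (log2 change 7.88 ± 0.26, adjusted p = 1.67e-07). Oasl1, a member of the oligoadenylate synthetase family, rose from 131 and 87.4 to 30214 and 23385, and Mx2, a dynamin-like GTPase, from 6.65 and 12 to 4581 and 1948. Isg20, a nuclease that degrades RNA, rose from 83 and 71 to 13606 and 15754, and Iigp1, a GTPase that attacks the vacuoles of parasites, from 135 and 66.7 to 19712 and 7965. The 0 h signals of Mx2 are below 16, so its log2 change of 6.90 is set in part by the added constant.

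Over the whole list of interferon-induced effectors, 39 of 40 tested genes were higher and 0 lower, with a median log2 change of 4.23 beside -0.20 for all genes. In the lists below that limma gave 0 calls in one direction at 12 h against 0 h, at most 3 genes passed an unadjusted p under 0.05 in that direction. Usp18, which removes ISG15 from proteins and dampens the interferon receptor, had the smallest p of the list. Its signal went from 238 and 223 to 24154 and 29308, a log2 change of 6.75 ± 0.17. The gene not called was Adar, which edits adenosines in double-stranded RNA, with 0.86 for its brightest probe set, while its other tested probe sets were called higher with 2.76 and 1.43. The Schlafen family, whose members restrain viral translation and T cell growth, was higher in 7 of 7, with Slfn4 from 101 and 24.5 to 13948 and 8311 and Slfn1 from 133 and 171 to 8013 and 8080.

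**Figure D2:**
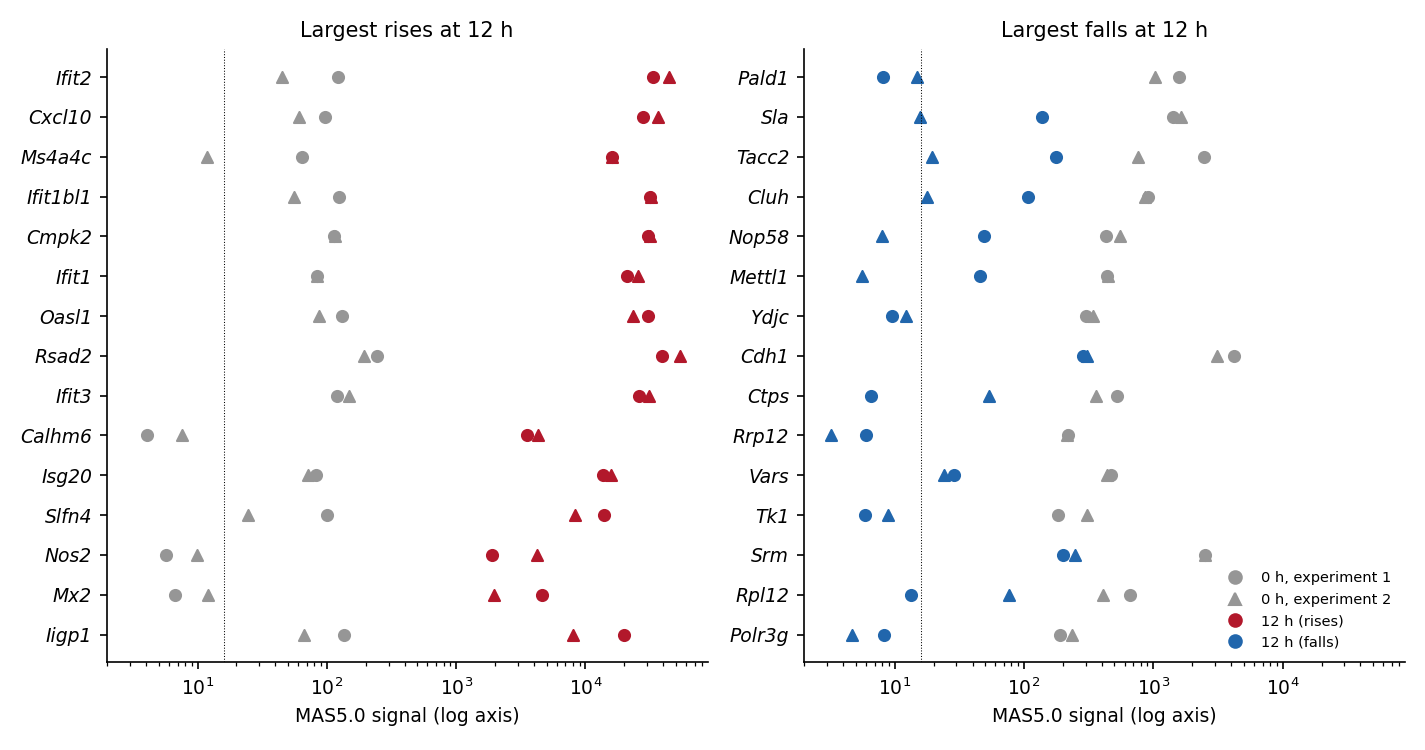
Deposited signal on a log axis at 0 h (grey) and 12 h (red or blue) for the 15 genes of the largest called rise and the 15 of the largest called fall, with circles for experiment 1 and triangles for experiment 2. In all 30 genes the 12 h points lie apart from the 0 h points, and the dotted line marks the added constant of 16, which at least 1 of the 12 h signals lies below in 10 of the fallen genes.

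Interferon acts on many of its targets through the interferon-stimulated response element. The core searched was GAAANNGAA on both strands of the promoter, from 250 bases before to 50 bases after the gene start in RefSeq (build GRCm38.p6, first listed start of each gene). A promoter was held for 8978 of the 10985 tested genes. The 3 genes of the largest rise whose promoter holds the core are shown with the matches in capitals, to let the element be seen in genes of the steepest response. The Cxcl10 window is chr5:92348840-92349139 on the minus strand, that of Ifit1bl1 is chr19:34601919-34602218 on the minus strand, and that of Ifit1 is chr19:34640639-34640938 on the plus strand.
Cxcl10: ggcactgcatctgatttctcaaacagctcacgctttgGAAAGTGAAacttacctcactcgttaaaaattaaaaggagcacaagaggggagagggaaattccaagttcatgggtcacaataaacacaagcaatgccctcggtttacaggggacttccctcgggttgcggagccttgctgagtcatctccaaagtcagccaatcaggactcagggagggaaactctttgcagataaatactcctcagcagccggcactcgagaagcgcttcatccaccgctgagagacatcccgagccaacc
Ifit1bl1: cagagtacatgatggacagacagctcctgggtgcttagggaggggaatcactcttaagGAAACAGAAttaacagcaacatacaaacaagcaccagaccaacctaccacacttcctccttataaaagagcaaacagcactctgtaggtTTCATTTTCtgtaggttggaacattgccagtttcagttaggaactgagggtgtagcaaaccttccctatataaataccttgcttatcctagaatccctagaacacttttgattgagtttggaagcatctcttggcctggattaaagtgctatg
Ifit1: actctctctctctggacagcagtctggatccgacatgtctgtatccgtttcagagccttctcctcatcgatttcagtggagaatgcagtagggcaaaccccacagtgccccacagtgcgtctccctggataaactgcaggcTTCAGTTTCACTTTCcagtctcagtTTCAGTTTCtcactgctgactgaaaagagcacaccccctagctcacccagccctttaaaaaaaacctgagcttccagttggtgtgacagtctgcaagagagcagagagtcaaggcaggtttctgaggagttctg
Cxcl10 holds 1 match that starts 213 bases before the gene start. Ifit1 holds 3 matches in a stretch that starts 109 bases before the gene start, 2 of them overlapping, and all are read on the opposite strand. Ifit1bl1 holds 2 matches, at 192 and 103 bases before the start, the latter on the opposite strand.

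The core was found in 7.18% of the promoters of all tested genes, in 14.5% of those called higher (139 of 957) and in 36.6% of those that rose at least 8-fold (37 of 101). It was found in 5.98% of the promoters of genes called lower, and in 8.57% of all 27025 promoters of the table. The NF-kB pattern GGNNNTTCC was at 22.1% of tested, 23.4% of higher and 21.2% of lower genes, and in 28.7% of the genes that rose at least 8-fold. The promoters of that last group had a mean GC content of 52.1%, against 60.8% for all tested genes, and the part of GC content in these shares was not tested. A match is a description of letters and no evidence of binding.

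Interferon signals through JAK kinases, STAT proteins and IRF factors. Of 23 tested JAK-STAT and IRF genes, 13 were higher and 1 lower, with a median log2 change of 0.79. Irf7, the factor that amplifies type I interferon, went from 284 and 196 to 20488 and 23187 with a log2 change of 6.43 ± 0.31 (adjusted p = 6.9e-07). Stat2 went from 513 and 405 to 6766 and 6318 and Irf9, its partner, from 767 and 579 to 2291 and 2205. Irf1 rose from 956 and 723 to 6795 and 5128. The inhibitors Socs1 and Socs3 were among the risen genes with log2 changes of 2.69 and 1.53. The lower one was Ifngr1, the ligand-binding chain of the interferon-gamma receptor, at -0.94, while its partner chain Ifngr2 was higher at 0.79. Median centring ended the call of Ifngr1. Stat6, Stat5b and Irf5 were not called, with 0.16, 0.15 and 0.19.

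Among sensors, the receptors of double-stranded RNA rose. Ifih1, which encodes the helicase MDA5 that binds long double-stranded RNA, went from 613 and 559 to 22717 and 20859 (log2 change 5.18 ± 0.20). Dhx58, its regulator LGP2, went from 211 and 318 to 5441 and 5271, and Tlr3, the endosomal receptor for poly(I:C), from 114 and 185 to 2703 and 1606. Nod1, a sensor of bacterial cell wall, rose from 116 and 116 to 1790 and 1124. In the list, 11 of 22 were higher, and the 1 that was lower was Tlr4, the lipopolysaccharide receptor, at -0.56. Its call was lost in most settings, among them median centring, no filter on low signals, no term for the experiment and either 0 h array left out. The adaptors Mavs and Ticam1, which join these sensors to the IRF factors, were not called (-0.16 and 0.64).

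In the NF-kB list 13 of 23 were higher and 1 lower, with a median log2 change of 0.89. The inhibitors and feedback genes were among those that rose. Tnfaip3, which encodes the deubiquitinase A20, went from 4570 and 4287 to 12643 and 10122, and Nfkbib from 923 and 751 to 3154 and 2109. Irak2, a kinase below the Toll-like receptors, rose from 582 and 688 to 2278 and 1874, whereas Irak1 fell from 2712 and 2220 to 816 and 1075 in all 4 of its tested probe sets. Their log2 changes were 1.68 ± 0.19 and -1.37 ± 0.22.

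Of 15 tested cytokines 11 were higher and 0 lower, with a median log2 change of 2.05. Ifnb1, interferon beta, went from 32.6 and 48.4 to 5290 and 3322 (log2 change 6.23 ± 0.89, adjusted p = 0.000774). Il6 went from 49.9 and 5.23 to 6798 and 878, so its level at 12 h differed between the experiments while both rose. Il12b, the p40 chain of interleukins 12 and 23, went from 50.2 and 50.5 to 3531 and 1923, and Il15, which sustains natural killer and memory T cells, from 80.6 and 164 to 5489 and 2716. Its presenting receptor Il15ra rose with it, from 169.7 and 157 to 3511 and 1958. Tnf was already high at 0 h, with 3221 and 2715, and had 7155 and 4239 at 12 h. Its log2 change of 0.89 was called with all arrays (adjusted p = 0.0187) and not when the 0 h array of either experiment or the 12 h array of experiment 1 was left out, with changes of 0.77, 1.01 and 0.71, nor without the term for the experiment (adjusted p = 0.135).

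Of 17 chemokines, 9 were higher and 0 lower. The ligands of CXCR3, a receptor of effector T cells, were among them. Cxcl10 went from 96.8 and 61.3 to 27950 and 36110, Cxcl11 from 40.1 and 68.4 to 3935 and 2601, and Cxcl9 had a log2 change of 5.30. Ccl5 rose from 1129 and 921 to 32268 and 45440, a log2 change of 5.21 ± 0.36. The neutrophil attractants Cxcl1, Cxcl2 and Cxcl3 were not called, with -0.22, -1.06 and -0.93. Among the receptors, Ccr7, which guides mature dendritic cells to lymph nodes, went from 272 and 149 to 7854 and 625. The rise was larger in experiment 1, and the call was lost without the term for the experiment (adjusted p = 0.178). Ccr2, which serves exit from bone marrow and blood, fell from 4353 and 2885 to 1144 and 674, with 2 of its 4 tested probe sets called lower.

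Of 18 genes of costimulation and maturation 14 were higher and 0 lower, with a median log2 change of 1.81. Cd40, the receptor for help from T cells, went from 336 and 152 to 14593 and 6184 (log2 change 5.29 ± 0.40). Cd86, a costimulatory ligand of CD28, rose from 1139 and 933 to 11105 and 7668, and Cd80 had 1.87. The inhibitory ligands Cd274 and Pdcd1lg2, which bind PD-1, were called higher as well with 2.45 and 1.40. Fscn1, the actin-bundling protein of dendrites, went from 741 and 225 to 15564 and 1314, again with the higher level in experiment 1, and its call too was lost without the term for the experiment. Marcksl1 went from 2405 and 2100 to 20314 and 14773, in all 4 tested probe sets.

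Genes that present peptides were called in most of the class I list and in part of the class II list. In MHC class I processing, which serves CD8 T cells, 13 of 16 genes were higher and 0 lower, with a median log2 change of 1.41. Tap1, a subunit of the peptide transporter, went from 1016 and 764 to 10107 and 6237, and Psmb9, an immunoproteasome subunit, from 1326 and 1677 to 9731 and 10380. Nlrc5, the transactivator of class I genes, rose from 643 and 330.5 to 6185 and 3240. The chaperones Canx, Calr and Pdia3 were not called, with values between -0.07 and 0.02. In MHC class II presentation, which serves CD4 T cells, 5 of 12 were higher and 0 lower, with a median of 0.53. The 5 became 9 after median centring, 2 after quantile normalisation and 1 without the term for the experiment. H2-Aa went from 26420 and 17143 to 33205 and 33229, and 2 of its 4 tested probe sets were called higher. The call of the brightest, at a log2 change of 0.64, was lost under quantile normalisation, among other settings. It was also lost without either 0 h array or the 12 h array of experiment 2. H2-Oa, a modulator of peptide loading, rose from 274 and 198 to 1372 and 907. The difference between the lists themselves was not tested. Of 32 proteasome genes 4 were higher and 7 lower, close to the 10.6% and 20.5% over all genes. The median of these 32 was -0.16, and 0.14 after median centring, which gave 7 higher and 1 lower.

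Of 24 uptake receptors, 10 were called higher and 6 lower, beside 10.6% and 20.5% over all genes. After median centring 11 were higher and 3 lower, and without the term for the experiment 5 and 1. Fcgr1, the high-affinity antibody receptor, went from 2190 and 1225 to 12032 and 8788, and Mertk, a receptor for dying cells, from 1314 and 1143 to 6953 and 4440. Clec4e, a lectin for fungal and mycobacterial sugars, rose from 10995 and 9370 to 34244 and 46481. By contrast Clec10a, a lectin for galactose-type sugars, fell from 804 and 452 to 93.2 and 117. The list had a median log2 change of 0.07, which was 0.38 after median centring and -0.25 after quantile normalisation.

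Of 15 enzymes that make mediators, 6 were called higher and 3 lower, beside 10.6% and 20.5% over all genes. Without the term for the experiment 5 were higher and 1 lower. The median was -0.08, and 0.22 after median centring. Nos2, inducible nitric oxide synthase, went from 5.66 and 9.95 to 1880 and 4236, and Gch1, which makes its cofactor, from 3870 and 3223 to 16494 and 19452. Ptges, which makes prostaglandin E2, rose from 245 and 229 to 1816 and 2048, and Ptgs2, the cyclooxygenase before it, from 90.5 and 26.5 to 6260 and 342. The call of Ptgs2 was lost without the term for the experiment. Kynu, of tryptophan breakdown, rose from 171 and 77.2 to 3831 and 1059. Alox5, which starts leukotriene synthesis, and Arg1, arginase, were called lower with -1.55 and -1.75.

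**Figure D3:**
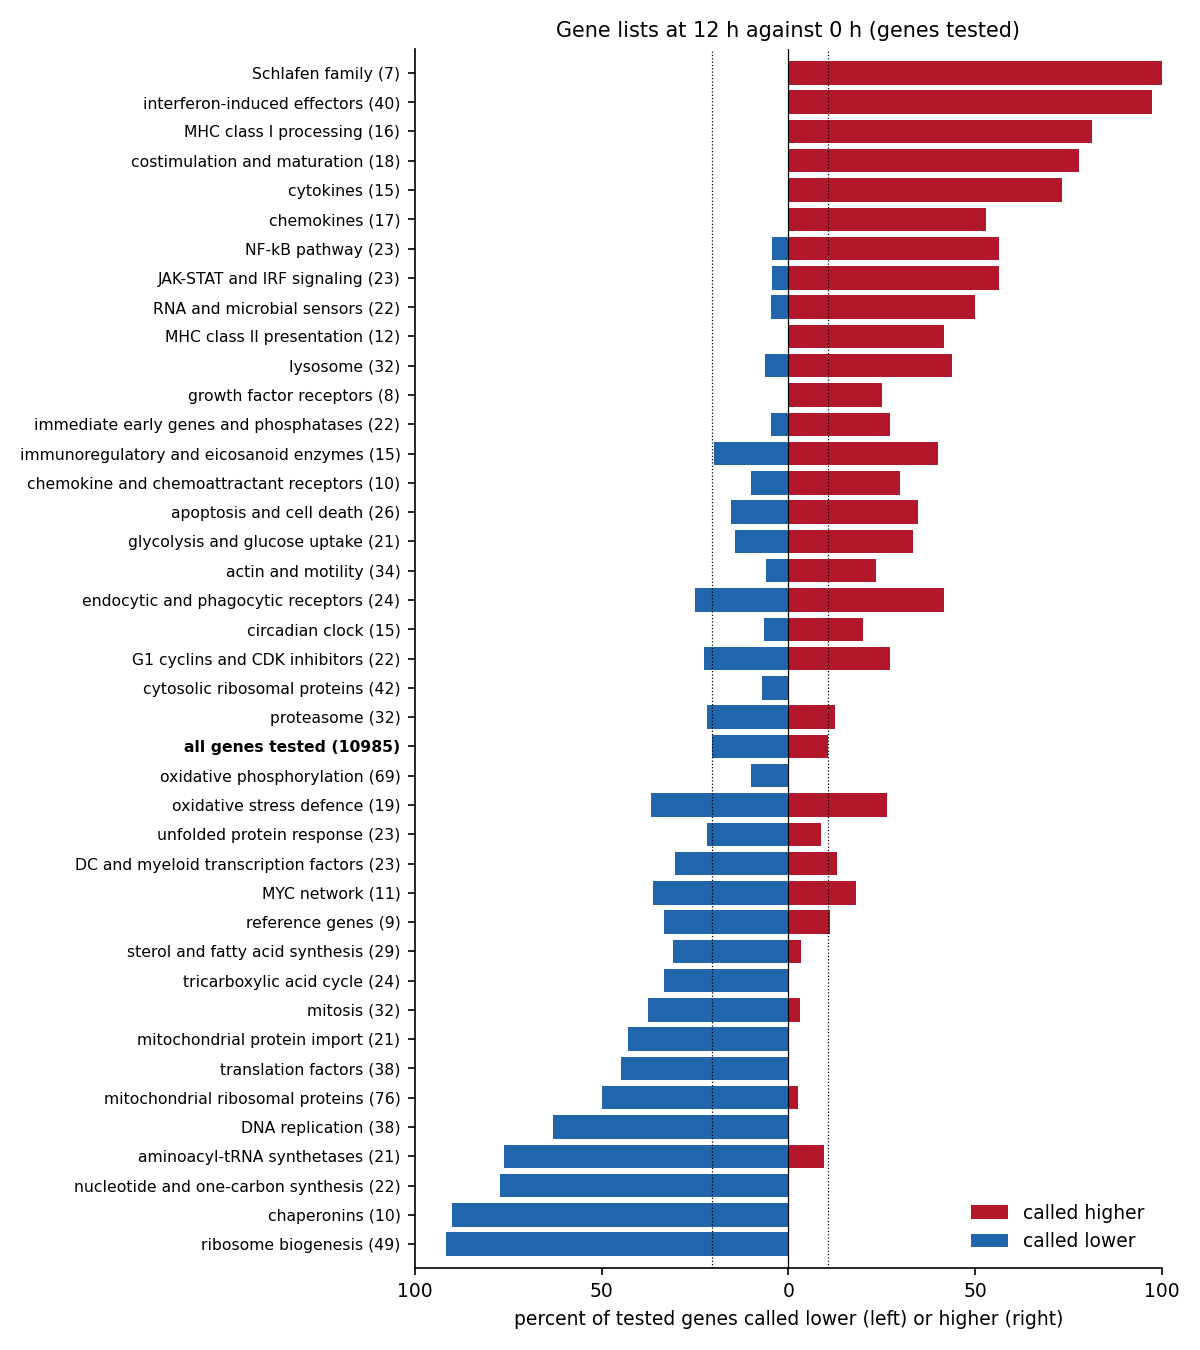
Percent of the tested genes of each list called lower (blue, left) and higher (red, right) at 12 h against 0 h, with the number of genes tested in brackets and the shares over all 10985 genes, 20.5% and 10.6%, as dotted lines. Schlafen, interferon-induced and MHC class I lists stand at the top and ribosome biogenesis, chaperonins and nucleotide synthesis at the bottom, and the medians of proteasome, oxidative phosphorylation and cytosolic ribosomal proteins change sign with the scaling.

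Ribosome biogenesis, the making of new ribosomes in the nucleolus, had the largest share of genes called lower among the 40 pathway and family lists. Of 49 tested genes, 45 were lower (20.5% over all genes) and 0 higher, with a median log2 change of -1.62. Median centring left 40 lower and a median of -1.32. Gar1 and Dkc1, subunits of the complex that modifies ribosomal RNA, went from 1235 and 986 to 153 and 80.6 and from 738 and 548 to 68 and 34.2, with log2 changes of -3.13 ± 0.22 and -3.33 ± 0.25. Wdr12, of the large subunit, fell from 792 and 849 to 104 and 72.8, and Ppan from 462 and 362 to 31.9 and 29.8. Nop58, a core protein of the methylating complex, went from 429 and 551 to 48.8 and 7.91, and Rrp12 from 219 and 216 to 5.99 and 3.22. For these genes both 12 h arrays were below both 0 h arrays. The proteins of the finished ribosome had few calls. Of 78 listed genes for cytosolic ribosomal proteins 42 were tested. Of these, 3 were lower and 0 higher, with a median of -0.11 that was 0.20 after median centring. After quantile normalisation 11 were lower. Rpl12 had the largest of these falls, from 658 and 408 to 13.3 and 75.9, on its 1 tested probe set. That probe set was dim beside the list's median 0 h signals of 19833 and 23630. The calls of Rps25 and Rpl14 were lost under median centring and under quantile normalisation, among other settings.

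Calls in the lists that serve translation were mostly falls. Of 21 tested aminoacyl-tRNA synthetase genes and their scaffold, 16 were lower and 2 higher, with a median of -0.95, and 9 were lower after median centring. Vars, which charges the valine tRNA, went from 469 and 440.0 to 28.6 and 24.1 and Iars, for isoleucine, from 1884 and 2395 to 293 and 270.0. The higher ones were Wars, for tryptophan, which is a known interferon target, at 1.35, and Rars at 0.48. Of 38 translation factors 17 were lower and 0 higher, or 11 lower after median centring, among them Eif3a, a scaffold of initiation, from 10471 and 7791 to 3874 and 2561 in all 4 probe sets. Mettl1, which methylates tRNA, fell from 442 and 449.7 to 46.1 and 5.63, and Polr3g, of RNA polymerase III, from 191 and 236 to 8.33 and 4.7. Mitochondrial ribosomal proteins were lower in 38 and higher in 2 of 76, with a median of -0.61, and 12 of the list were lower after median centring. Of 10 chaperonin genes, which fold actin and tubulin or mitochondrial proteins, 9 were lower and 0 higher, with Cct5 from 6414 and 6498 to 2511 and 2102.

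In nucleotide and one-carbon synthesis, 17 of 22 genes were lower and 0 higher, with a median of -1.37. Ctps, which makes CTP, went from 519.6 and 364 to 6.52 and 53.3, Umps, which makes UMP, from 589 and 707 to 40.7 and 152, and Mthfd1, of folate metabolism, from 842 and 947 to 52.9 and 159. Srm, spermidine synthase, went from 2523 and 2520 to 201 and 246, a log2 change of -3.41 ± 0.23 (adjusted p = 5.05e-06). The transcription factor MYC is known to drive many genes of these kinds. Myc itself fell from 781 and 727 to 229 and 70.5 (log2 change -2.40 ± 0.35), and Mxd1, whose protein competes with MYC for its partner MAX, rose from 147 and 214 to 3985 and 3867 (4.35 ± 0.31). Max and Mnt were not called, with 1.07 and -0.85.

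MYC and its relatives read the E-box CACGTG, which was searched in the same windows. Shown with the E-box in capitals are the 3 genes of the largest fall whose promoter holds it. They are Cluh, an RNA-binding protein of mitochondrial biogenesis at chr11:74649254-74649553 on the plus strand, Mettl1 at chr10:127041682-127041981 on the plus strand, and Tsr1, of the small ribosomal subunit, at chr11:74897830-74898129 on the plus strand.
Cluh: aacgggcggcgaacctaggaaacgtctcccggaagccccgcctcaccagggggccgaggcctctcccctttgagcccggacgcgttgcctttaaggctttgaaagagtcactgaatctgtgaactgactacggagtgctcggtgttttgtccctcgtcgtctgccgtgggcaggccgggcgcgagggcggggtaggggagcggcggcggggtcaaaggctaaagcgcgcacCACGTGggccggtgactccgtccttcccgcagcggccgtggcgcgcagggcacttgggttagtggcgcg
Mettl1: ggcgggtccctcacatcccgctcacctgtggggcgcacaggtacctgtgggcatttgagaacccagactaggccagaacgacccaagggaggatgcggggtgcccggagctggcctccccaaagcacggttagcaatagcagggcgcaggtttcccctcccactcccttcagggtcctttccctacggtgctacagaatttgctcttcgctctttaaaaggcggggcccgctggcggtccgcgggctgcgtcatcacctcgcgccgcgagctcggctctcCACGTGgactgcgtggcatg
Tsr1: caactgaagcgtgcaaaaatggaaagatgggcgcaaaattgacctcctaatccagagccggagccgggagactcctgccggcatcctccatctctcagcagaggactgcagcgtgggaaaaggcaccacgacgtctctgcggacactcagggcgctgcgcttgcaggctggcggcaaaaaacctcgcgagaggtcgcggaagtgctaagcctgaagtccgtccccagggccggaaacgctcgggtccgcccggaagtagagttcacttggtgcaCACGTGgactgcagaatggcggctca
The E-box starts 19 bases before the gene start in Cluh, and 30 and 24 bases after it in Mettl1 and Tsr1. Cluh fell from 918 and 856 to 107 and 17.7, and its call was lost without the 12 h array of experiment 2 (log2 change -3.31, adjusted p = 0.0508). The E-box was found in 13.3% of promoters of genes called lower (247 of 1855), in 16.4% of those that fell at least 4-fold, in 8.78% of genes called higher and in 10.3% of all tested genes. The E2F pattern TTTNGCGC was at 4.64% of lower, 2.19% of higher and 2.62% of tested genes, and the NRF1 pattern GCGCATGCG at 5.01%, 1.46% and 3.84%. The CCAAT box was at 39.6%, 36.7% and 38.8%. These shares are descriptions with no test.

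**Figure D4:**
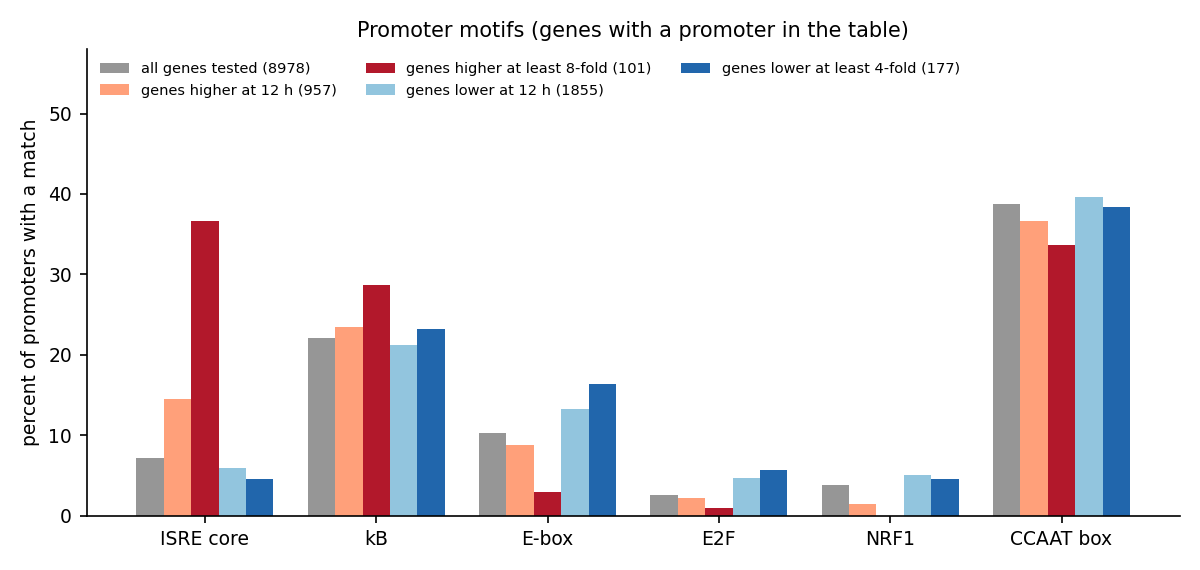
Percent of promoter windows holding each motif on either strand, for all tested genes (grey), genes called higher (orange), higher at least 8-fold (dark red), called lower (light blue) and lower at least 4-fold (dark blue), with the number of promoters in brackets. The core of the interferon-stimulated response element runs from 7.18% of tested genes to 36.6% of the genes that rose at least 8-fold, and the E-box from 2.97% of those to 16.4% of the genes that fell at least 4-fold.

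DNA replication genes were lower in 24 of 38 and higher in 0, with a median of -1.22. Rrm2, the limiting subunit of ribonucleotide reductase, went from 1746 and 2127 to 239 and 380.5, and Tk1, thymidine kinase, from 184 and 307 to 5.85 and 8.88. Mcm3 and Mcm5, parts of the replicative helicase, had log2 changes of -2.39 ± 0.25 and -1.80 ± 0.18. Pcna, the sliding clamp, was bright on all arrays and not called, with 0.25. Of 32 mitotic genes 12 were lower and 1 higher. The higher one was Tpx2, a spindle protein, in 1 of its 4 tested probe sets (433 and 428 to 2380 and 1414), while the others had changes of -0.02 to 0.28. Among 22 regulators of G1, 6 were higher and 5 lower, with a median of -0.36. The higher ones were the cyclins Ccnd1 and Ccnd2, the inhibitors Cdkn1a, Cdkn1b and Cdkn2d, and Rbl1, and the call of Cdkn2d was lost without the term for the experiment (adjusted p = 0.0842). Ccnd2 went from 1508 and 1806 to 14962 and 7006 in all 7 tested probe sets, and Cdkn1a, which encodes p21, from 4898 and 5824 to 15519 and 18442. The lower ones were Cdk4, the partner of the D cyclins, at -1.42, Ccne2 at -1.56 and the E2F factors E2f2, E2f3 and E2f6 at -1.58, -1.11 and -2.61.

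Oxidative phosphorylation had 7 of 69 genes lower and 0 higher, a smaller share lower than the 20.5% over all genes. Its median of -0.15 was 0.16 after median centring, which gave 0 lower and 4 higher. After quantile normalisation 18 were lower. In the tricarboxylic acid cycle 8 of 24 were lower and 0 higher, which fell to 2 lower after median centring. Fh1, fumarate hydratase, went from 3478 and 3378 to 757 and 1060. Import of proteins into mitochondria had 9 of 21 lower and 0 higher. Glycolysis and glucose uptake had 7 of 21 higher and 3 lower, with Hif1a from 9468 and 10774 to 21999 and 32047 and Hk2, a hexokinase, from 2171 and 2953 to 4354 and 6891. Slc16a1, a lactate transporter, fell from 1547 and 1406 to 284 and 538. In sterol and fatty acid synthesis 9 of 29 were lower and 1 higher. Fasn, fatty acid synthase, fell from 855 and 544 to 121 and 104, and the higher one, Ch25h, makes the antiviral oxysterol 25-hydroxycholesterol and went from 788 and 1253 to 5586 and 3855. Lysosomal genes were higher in 14 of 32 and lower in 2, with 6 and 4 after quantile normalisation. Their median of 0.33 was 0.02 after that step. The counts of the following lists moved with the setting as well, and 10.6% of all genes were higher and 20.5% lower. Genes of actin and motility were higher in 8 of 34 and lower in 2, with 4 and 4 after quantile normalisation. Genes of oxidative stress defence were higher in 5 of 19 and lower in 7, with 9 and 3 after median centring and 1 and 0 without the term for the experiment. Immediate early genes were higher in 6 of 22 and lower in 1, growth factor receptors in 2 and 0 of 8, and the circadian clock in 3 and 1 of 15, and without that term these counts were 3 and 0, 1 and 0, and 0 and 0.

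Among genes of cell death, 9 of 26 were higher and 4 lower. Casp4, which encodes the sensor of intracellular lipopolysaccharide, went from 721 and 517 to 8028 and 6364, Casp1 from 2799 and 2138 to 9946 and 7865 and Mlkl, which opens the membrane in necroptosis, from 1118 and 1242 to 7812 and 7443. Cflar, which restrains caspase 8, rose from 1345 and 1242 to 8591 and 6580. The lower ones were Bcl2, Bmf, Casp6 and Diablo with log2 changes of -1.21, -1.53, -0.82 and -0.74. In the unfolded protein response 2 of 23 were higher and 5 lower, close to the 10.6% and 20.5% over all genes. Median centring gave 4 and 2. Herpud1, of degradation at the endoplasmic reticulum, fell from 2573 and 2532 to 573 and 753. Ddit3, which encodes CHOP, rose from 546 and 924 to 2172 and 2768, with 1 of its 2 tested probe sets called higher. Hspa5, the main chaperone of that compartment, was not called at 0.27.

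Transcription factors of the myeloid line had 3 of 23 higher and 7 lower, with a median of -0.21 that was 0.10 after median centring. Centring gave 7 higher and 4 lower, and leaving out the term for the experiment 0 higher and 3 lower. Id3 and Id1, inhibitors of helix-loop-helix factors, were lower, with Id1 from 302 and 271 to 44.1 and 72.3. Irf8, a factor of conventional and plasmacytoid dendritic cells, was higher at 1.48, and so was Tcf4, from 737 and 434 to 1930 and 1463 in all 5 tested probe sets. The call of Tcf4 was lost without the term for the experiment. Zeb2 and Nr1h3 were not called, with 0.05 and 0.07. Genes in common use as references included called ones. Of 9 tested, 3 were lower and 1 higher, with Tfrc at -1.55, Gusb at -0.99, Hprt at -0.69 and Actb at 0.48. Their median of -0.23 was 0.08 after median centring. The call of Actb was lost under quantile normalisation, and that of Hprt under median centring, each among other settings. Without the 12 h array of experiment 1, Tfrc had -1.35 and Hprt -0.54, and neither was called.

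The steepest falls outside these lists were of varied function. Pald1, a phosphatase-like protein, went from 1582 and 1035 to 8.12 and 14.9 (log2 change -5.57 ± 0.47, adjusted p = 2.84e-05). Sla, an adaptor that dampens antigen receptor signals, went from 1413 and 1647 to 139 and 15.7 in all 3 tested probe sets. Cdh1, which encodes E-cadherin, the adhesion protein that holds immature dendritic cells together, fell from 4175 and 3083 to 288 and 308 (-3.52 ± 0.21). Tacc2, of the centrosome, went from 2456 and 758 to 177 and 19.3, and Ydjc from 299.5 and 342 to 9.6 and 12.2. Rises outside the lists included Ms4a4c, a tetraspan membrane protein, from 64.6 and 11.9 to 16008 and 15944, and Calhm6, of a channel family, from 4.08 and 7.59 to 3504 and 4309. Among markers of other cells, Kdr, an endothelial receptor, went from 165 and 112 to 1505 and 1272 and Hdc, which makes histamine, from 7.59 and 9.24 to 536 and 243. Vcam1, an adhesion protein of stroma, went from 147 and 84.7 to 1772 and 173. Pecam1, Cdh5, Cpa3 and Fcer1a, which also mark endothelial and mast cells, were at 82.7 or less on the 4 arrays. Other members of the mast cell list were brighter. Gata2 went from 226 and 186 to 342 and 280, with its brightest probe set not called and 1 of its 2 tested probe sets called higher. Kit, not tested, went from 157 and 46.8 to 16.3 and 32.2. The 11 stromal markers summed to 801 and 767 before and 3733 and 2192 after 12 h. The part of such cells in these changes was not tested.

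To place 12 h in the course, it was compared with its neighbours, and these comparisons share the 12 h arrays. Between 6 and 12 h few genes were called, with 87 higher (0.792%) and 151 lower (1.37%) at 12 h. In limma 739 and 1328 genes passed an unadjusted p under 0.05, so few calls do not show that few genes changed. Nos2 rose most, from 308 and 91.8 at 6 h to 1880 and 4236 at 12 h (log2 change 3.93, adjusted p = 0.0139). Ms4a4c had 3547 and 1615 at 6 h, Isg20 4781 and 2471 and Slfn4 3253 and 1463, and all were called higher at 12 h than at 6 h. Cd86 rose by 1.66 and Ptges by 2.04 on the log2 scale. Pald1 fell furthest, with 169.9 and 451 at 6 h, followed by Tk1, with 154 and 347, a log2 change of -3.41. Vars fell by 2.91 on the log2 scale and Dcps, a scavenger of messenger RNA caps, from 224 and 305 to 25.7 and 42.4. Of 49 ribosome biogenesis genes 11 were lower at 12 h than at 6 h and 0 higher, and of 38 replication genes 8 were lower and 0 higher. Of the 40 interferon-induced effectors, 5 were higher and 0 lower. At an unadjusted p under 0.05, 0 genes of these lists moved the other way.

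Between 12 and 24 h, 281 genes were higher (2.56%) and 240 lower (2.18%) at 24 h. Of 15 cytokines 5 were lower and 0 higher, and of 17 chemokines 5 were lower and 0 higher. Costimulation and maturation had 4 of 18 lower and the sensors 4 of 22. The JAK-STAT and IRF list and the NF-kB list each had 3 of 23 lower, and these 4 lists had 0 higher. Ifnb1 had 86.1 and 842 at 24 h, a log2 change of -3.83 (adjusted p = 0.0426). Ifna4, an interferon alpha gene, went from 443 and 369 at 12 h to 3.81 and 19.9 at 24 h. Tnf went from 7155 and 4239 to 772 and 350.4, below its 0 h signals, and Il6 to 410.3 and 183. Ptgs2 had 219 and 76 and Mir155hg, the host gene of a microRNA of activated immune cells, went from 1730 and 545 to 243 and 24.8. Of 40 interferon-induced effectors 0 were higher and 0 lower at 24 h, with limma at an adjusted p under 0.05, and 3 and 7 passed an unadjusted p under 0.05. Zap70, a kinase of lymphocyte signalling, rose most, from 51.8 and 67 to 709 and 729.7, after a fall from 503 and 365 at 0 h. That fall had a log2 change of -2.57, and it was no longer called when experiment 1 lost its 0 h array (-2.01) or experiment 2 its 12 h array (-2.45). Cxcr4, a receptor for homing to bone marrow and lymph node, rose from 153 and 341 to 1034 and 1260, and H2-Q5, a class I-like gene whose probes may also bind its close relatives, from 841 and 2283 to 3528 and 9774. Mitochondrial ribosomal proteins were higher in 10 of 76 and lower in 0, and ribosome biogenesis genes higher in 5 of 49 and lower in 0. Of the lists with 0 calls in one direction here, cytokines had 1 gene at an unadjusted p under 0.05 in that direction, chemokines 0 and each of the ribosomal lists 1. Costimulation and maturation had 0, the sensors 2, JAK-STAT and IRF 1 and NF-kB 2. Cdh1 fell further, to 138 and 123, and Ccr2 to 298 and 165.

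The 12 to 6 h and 24 to 12 h counts were less firm than the 12 to 0 h count. Among probe sets, 137 rose and 254 fell from 6 to 12 h, and 421 rose and 507 fell from 12 to 24 h. Without the term for the experiment limma called 0 in either direction in both comparisons, although 603 and 1450 probe sets passed an unadjusted p under 0.05 in the first and 1416 and 1180 in the second. With that term 1269 and 2521 passed that level in the first and 2642 and 2274 in the second. Leaving out 1 array at a time gave 0 to 770 higher and 0 to 1739 lower in the first comparison, and 6 to 1889 higher and 15 to 2429 lower in the second. The high ends came without a 24 h array. Leaving out any other array left at most 35 higher and 88 lower in the first and 157 higher and 263 lower in the second, and leaving out either 6 h array left 0 to 2 in each direction of the first.

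The experiment term also set how many genes of some lists were called at 12 h against 0 h. Without it, 37 of 40 interferon-induced effectors, 7 of 7 Schlafen genes, 10 of 16 MHC class I genes and 7 of 17 chemokines were called higher. Without it, 42 of 49 ribosome biogenesis genes, 22 of 38 replication genes and 14 of 22 genes of nucleotide synthesis were called lower. Fewer calls were left in the JAK-STAT and IRF list (7 higher), the sensors (7), NF-kB (6), maturation (9), uptake receptors (5 higher, 1 lower) and lysosome (5 higher), and among mitochondrial ribosomal proteins (17 lower), aminoacyl-tRNA synthetases (9 lower) and oxidative phosphorylation (0 lower, with 13 at an unadjusted p under 0.05 when the term is kept).

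**Figure D5:**
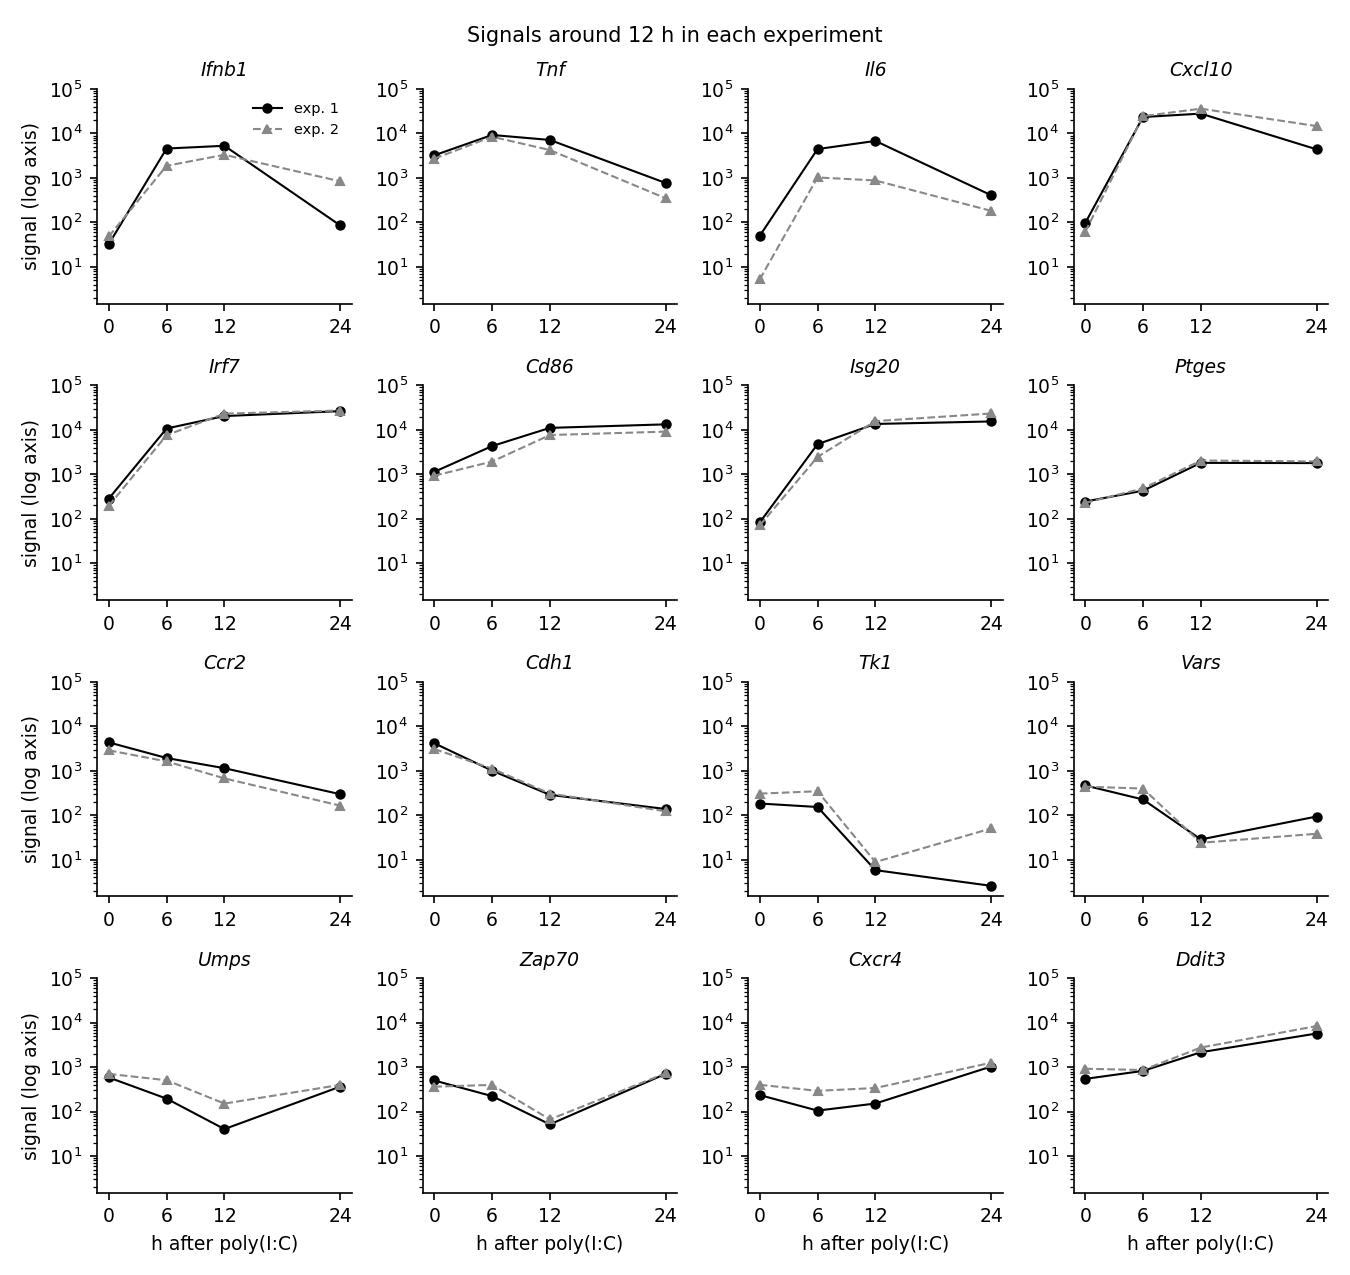
Deposited signal on a log axis at 0, 6, 12 and 24 h for 16 genes named in the text, with solid lines for experiment 1 and dashed lines for experiment 2. Ifnb1, Tnf and Il6 are lower at 24 h than at 12 h in both experiments, Irf7 and Cd86 stay high, and Vars, Umps and Zap70 are lowest at 12 h.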

How the data were processed

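RNA of 12 arrays was measured, 2 experiments at each of 6 times, and the 4 arrays at 0 and 12 h are compared. The authors deposited MAS signal intensities from Affymetrix mouse arrays, each array scaled to a trimmed mean of 500. No replicate was pooled. Scaling sets this mean alike on every array, so changes are relative to it. From these values, a linear model of log2(signal + 16) was made in limma, version 3.58.1 under R 4.3.3 (a term for each time, a term for the experiment, all 12 arrays, an intensity trend), over the 22519 probe sets at or above the median mean signal, with Benjamini-Hochberg adjustment. The fit had 5 residual degrees of freedom, and 2 arrays a time limit the precision. The experiment was a term because the methods give 1 mouse per experiment, and same-numbered arrays deviated together (Pearson r 0.26 to 0.66 over 15 pairs of times, median 0.57). Named genes were the 15 largest rises and falls, up to 4 of each of 48 lists with the smallest p, and the 5 largest of each neighbouring comparison. Others were taken from the lists after their values were seen. The comparison, members and lists were chosen with earlier results of these data known. The fit was tested on simulated data. Promoters are those of RefSeq. Alternatives covered the constant, filter, scaling, experiment term, trend, arrays used and each array left out. Some results are not reported here.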

Additional observations from a re-analysis of the deposited data

Results flagged for a closer look

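Named genes whose signal differed between 12 and 24 h, by the limma contrast of those times at an adjusted p under 0.05, are given with their log2 change from 12 to 24 h. This contrast shares the 12 h arrays with the values of the report. Among the genes lower at 24 h, Ifna4 changed by -3.98, Ifnb1 by -3.83, Tnf by -3.36, Ptgs2 by -3.35, Mir155hg by -3.27, Il6 by -3.08, Ch25h by -2.51 and Cxcl10 by -1.98. Smaller falls were those of Ier3 (-1.34), Cflar (-1.11), Ifih1 (-1.0), Ciita (-0.989), Tnfaip3 (-0.956), Nlrc5 (-0.942) and Slfn5 (-0.917). Ccr2 had -1.91, Marcksl1 -1.73 and Cdh1 -1.1. The factor Tcf4 had -1.62, and the cyclins Ccnd2 and Ccnd1 had -1.56 and -0.723.

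Genes called lower at 12 h than at 0 h were in part higher again at 24 h. They were named for a large fall or a small p at 12 h, or for the rise to 24 h itself. Both choices favour a rise from 12 to 24 h. Zap70 changed by 3.29, Tacc2 by 2.11, Umps by 2.03, Ydjc by 1.96, Timm9 by 1.57, Ppan by 1.33 and Hspa9 by 0.675. The mitochondrial ribosomal proteins Mrps27, Mrps18b and Mrps26 had 1.33, 0.988 and 0.891. 2410006H16Rik and St6gal1, also called lower at 12 h, had 2.79 and 2.25. The call at 12 h of 2410006H16Rik was lost under median centring (log2 change -0.90, adjusted p = 0.112), among other settings, and that of St6gal1 with no replicate block (adjusted p = 0.0798). Other rises were those of Mettl7a1 (2.26), Cxcr4 (2.24), H2-Q5 (2.07) and Ddit3 (1.49).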

How the results depend on the processing

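Of 214 named genes 191 were called at 12 h against 0 h, and 0 changed direction with a call. Of the 191, 142 were called under every alternative that tested them. The stricter filter on low signals did not test all 214, and there 192 were unchanged and 2 gained a call. The counts moved more. Of probe sets higher and lower at 12 h than at 0 h (2098 and 4205), median centring gave 3254 and 2205, no replicate block 1079 and 1936, and a 2-fold minimum 1361 and 2715. Without 1 array, 1211 to 2901 were higher and 1679 to 6420 lower. Against 6 h (137 and 254), no filter gave 74 and 148, no replicate block 0 and 0, no trend 7 and 21, and the arrays of these times alone 896 and 1368. Median centring left 123 lower, a 2-fold minimum 90 higher, and 1 array left out 0 to 770 higher and 0 to 1739 lower. For 24 h against 12 h (421 and 507), no filter gave 199 and 286, no replicate block 0 and 0, no trend 93 and 142, and the arrays of these times alone 96 and 214. A 2-fold minimum left 256 higher, and 1 array left out 6 to 1889 higher and 15 to 2429 lower. Without the replicate block limma had 603 and 1450 probe sets at an unadjusted p under 0.05 against 6 h, and 1416 and 1180 for 24 h against 12 h. It ended the call of 38 named genes at 12 h against 0 h. The cause of these shifts was not tested. Signals below 16 are set largely by the added constant.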
